A study of Homo sapiens with 8 samples.

Results

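The mitochondrial ribosomal protein genes were followed in 2 human AML cell lines after knockdown (KD) of PRMT9, an arginine methyltransferase. The genes were taken by name, as every row of the Molm13 count table whose symbol is MRPL or MRPS followed by a number and, where present, a letter from A to C. This gave 78 genes, 49 named MRPL and 29 named MRPS, of the 57992 genes listed for Molm13. All 78 were found by the same identifier among the 58174 genes listed for THP1. Molm13 and THP1 are monocytic leukemia lines that carry MLL (KMT2A) fusions. All cells were labeled as wild type and as induced with doxycycline, and they expressed either a control hairpin (shCtrl) or a hairpin against PRMT9 (shPRMT9). The 4 groups, Molm13 shCtrl, Molm13 shPRMT9, THP1 shCtrl and THP1 shPRMT9, held 2 polyA-selected RNA-seq libraries each, 8 in all. Libraries 1 and 2 of a group may be different hairpins or repeats of the same hairpin, and nothing states that they came from separate cultures, so p-values measure only the spread between these libraries, which may be technical. The THP1 library names contain the letters OCI, the start of several other AML line names, while every other label says THP1.

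Mitochondria make a small set of respiratory chain subunits on their own ribosome. Its rRNAs are encoded in mitochondrial DNA, whereas all of its proteins are encoded in the nucleus, made in the cytosol and imported. The small subunit holds the mRNA and decodes it, and the large subunit forms peptide bonds at the inner membrane. Many of the proteins descend from bacterial ribosomal proteins, and others were gained in the mitochondrial lineage. AML cells are known for their reliance on oxidative phosphorylation, and mitochondrial translation has been studied as a drug target in this disease. By present knowledge, 26 of the 78 genes encode small subunit proteins and 51 encode large subunit proteins, since the names do not always follow the subunit. MRPS18A and MRPS30 were named for the small subunit but belong to the large one. MRPS36 is now known as a subunit of the α-ketoglutarate dehydrogenase complex. In the lists used here, 45 of the ribosomal proteins were classed as having bacterial counterparts. The other 32 were classed as specific to mitochondria. MRPS28 is among these 32, but its class is uncertain, and values given by class below include it as listed.

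Promoter letters are shown because nuclear genes for mitochondrial proteins are known to carry sites for NRF1, for ETS factors of the GABPA type and for YY1. RefSeq promoters (GRCh38.p14, 250 bases before to 50 after the gene's start) were matched for 69 of the 78 genes, and for 65 of these the bases after the start were found in a GENCODE transcript of the gene. The ETS letters CCGGAAG were found on either strand in 29 of the 69 promoters (42.0%), against 10.7% of all 27305 promoters and 14.2% of 15843 promoters of protein-coding genes. The YY1 letters AAGATGGCG were found in 13 (18.8%, against 1.8% of all and 2.7% of protein-coding promoters). The NRF1 letters GCGCANGCG were found in 13 as well (18.8%, against 8.0% and 11%). At least 1 of the 3 motifs was in 45 promoters (65.2%, against 24.7% of protein-coding promoters). The E-box CACGTG was in 6 (8.7%, against 7.4% of all promoters), the CRE TGACGTCA in 0 (0.0%, against 2.0%) and the interferon-type letters GAAANNGAA in 7 (10.1%, against 8.3%). No matches of different motifs overlapped in these promoters.

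The following 30-base stretches hold the NRF1, ETS and YY1 matches of the genes with the largest losses in Molm13, with the matching letters in capitals. They are given as the gene reads, 5′ to 3′, on GRCh38.p14.
MRPL20, NRF1 (chr1:1407486-1407515, minus strand): cgggacggtcCGCGTGCGCtgctgtttatc
MRPL20, ETS at both ends (chr1:1407308-1407337, minus strand): CCGGAAGtatcgcaggggctgacCCGGAAG
MRPL36, NRF1 (chr5:1799927-1799956, minus strand): cgcactccagCGCCTGCGCactcgctgctg
MRPL36, YY1 (chr5:1799854-1799883, minus strand): ccccccccgcCGCCATCTTccttcctggca
MRPS26, ETS (chr20:3046004-3046033, plus strand): tccccgcgccgCTTCCGGggcacggtggcg
MRPS16, ETS (chr10:73252621-73252650, minus strand): cggatcatccgCTTCCGGagtcgaggtttt
MRPS10, ETS (chr6:42217865-42217894, minus strand): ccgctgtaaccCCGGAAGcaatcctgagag
MRPS10, YY1 (chr6:42217833-42217862, minus strand): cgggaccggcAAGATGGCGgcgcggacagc
MRPL47, ETS (chr3:179604659-179604688, minus strand): ggcttgagacgCCGGAAGtgacgctatcgt

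The same letters were found in promoter windows of some genes with higher counts in shPRMT9 cells. Of these genes with a match, 4 are shown for comparison. The YY1 matches of MRPS18B and MRPL50, like that of MRPS10, lie after the gene's start.
MRPL16, ETS (chr11:59810766-59810795, minus strand): agtgaacacaaCTTCCGGccccactgagcg
MRPS22, ETS on both strands (chr3:139343900-139343929, plus strand): taagggcCCGGAAGaCTTCCGGccctttcc
MRPS18B, YY1 (chr6:30617853-30617882, plus strand): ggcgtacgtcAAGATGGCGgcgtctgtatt
MRPL50, YY1 (chr9:101398576-101398605, minus strand): gatctcatcgAAGATGGCGgcgcgatctgt

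MRPL12, MRPL19 and MRPS11, which also lost much of their RNA in Molm13, had none of the 3 motifs in this window. Neither did MRPL1, MRPL55 and MRPS6, which were called higher in Molm13, and MRPL10, also called higher, had no matched promoter. Among genes with a matched promoter, 28 of 45 that were called lower in Molm13 and 17 of the other 24 had at least 1 of the 3. These counts describe the letters and were not tested.

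PRMT9 was low in every shPRMT9 library. It had 332 and 289 counts in Molm13 shCtrl, 41 and 56 in Molm13 shPRMT9, 317 and 352 in THP1 shCtrl and 60 and 68 in THP1 shPRMT9. The log2 fold change was -2.68 (SE 0.135, FDR = 1.16e-21) in Molm13 and -2.29 (SE 0.131, FDR = 3.54e-14) in THP1. These values, and all others of this kind, came from the quasi-likelihood test of edgeR, with the FDR adjusted over all genes by Benjamini-Hochberg. Total counts ranged from 18720950 to 27356870 per library, and 77 of the 78 genes could be tested in Molm13 and all 78 in THP1. Of 11 monocytic and myeloid markers, 10 were above an RPKM of 1 in both shCtrl groups, whereas T cell markers were at or near 0 in all libraries and PAX5, a B cell factor, was above 1 in Molm13 and in THP1 shPRMT9. Of 4 HOXA genes and MEIS1, HOXA5, HOXA9 and HOXA10 were above 1 in both lines, and HOXA7 and MEIS1 in Molm13 alone. Of 8 HOXB genes, 0 were above 1 in Molm13, HOXB4 was in THP1 shCtrl, and HOXB3 and HOXB4 were in THP1 shPRMT9. The summed RPKM of the myeloid markers was 1047 to 1049 in Molm13 shCtrl and 1283 to 1298 in shPRMT9, and 2077 to 2134 and 2725 to 2793 in THP1. Their part in the results below was not tested. In bulk RNA, fewer cells of a type and less RNA per cell cannot be told apart.

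In shCtrl cells, the genes spanned a wide range of levels. RPKM, the reads per kilobase of exon scaled to the size of the library, allows comparison between genes. The median of the 78 means over all 8 libraries was 19.9, with quartiles of 11.4 and 32.1, and 76 genes exceeded 1. MRPL18, a large subunit protein also known for carrying 5S rRNA into mitochondria, was the highest, at 92.3 and 97.3 RPKM in Molm13 shCtrl and 131 and 131 in THP1 shCtrl. MRPL37 had 45.2 and 44.4 in Molm13 and 126 and 122 in THP1. MRPL15 and MRPL3, proteins of the conserved core of the large subunit, ranked next in the mean over the 8 libraries. The level of MRPL15 was higher in Molm13 (92 and 93.5) than in THP1 (64.8 and 62.8), and that of MRPL3 was close in both (65.4 and 64.9, against 68.6 and 69.7).

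MRPS24, MRPL38, MRPL46 and MRPL53 were the lowest. MRPS24 had only 10 and 12 counts in Molm13 shCtrl, 4 and 8 in Molm13 shPRMT9, 16 and 24 in THP1 shCtrl and 14 and 15 in THP1 shPRMT9, and was not tested in Molm13. All 4 share exon bases with another gene on the same strand (23.2% of MRPS24, 37.5% of MRPL38, 11.3% of MRPL46 and 45.2% of MRPL53), as do 10 of the 78 genes at 10% or more. A counter that assigns each read to a single gene leaves shared bases out, so these levels are uncertain, and the part of this in their low values was not tested.

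The shCtrl levels of the lines were close in order (Pearson's r of log2 RPKM 0.91, Spearman's rho 0.86 across the 78 genes, which share their libraries and are not independent). Over 2-fold differences with an FDR below 0.05 were seen for 11 genes. THP1 was lower for 9 (background 24.3% of 19288 genes) and higher for 2 (background 21.7%). The 2 higher genes were MRPL41 (log2 difference 1.53) and MRPL37 (1.47). The 9 lower genes, of which some are named after their values were seen, were MRPS28 (-1.52), MRPS31 (-1.50), MRPS21 (-1.36), MRPL51 (-1.34), MRPS18B (-1.18), MRPL42 (-1.16), MRPL54 (-1.10), MRPS27 (-1.08) and MRPL1 (-1.01). Genes classed here as mitochondria-specific, with MRPS28 of uncertain class among them, made up 7 of these 9 and both higher genes. The log2 differences had an SD of 0.78 over the 32 mitochondria-specific genes and 0.48 over the 45 conserved ones. The ratio of summed small to large subunit counts was 0.583 to 0.594 in the 4 Molm13 libraries and 0.467 to 0.473 in the 4 THP1 libraries, which did not overlap. The lines were counted in separate tables, and line and table cannot be told apart.

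**Figure D1:**
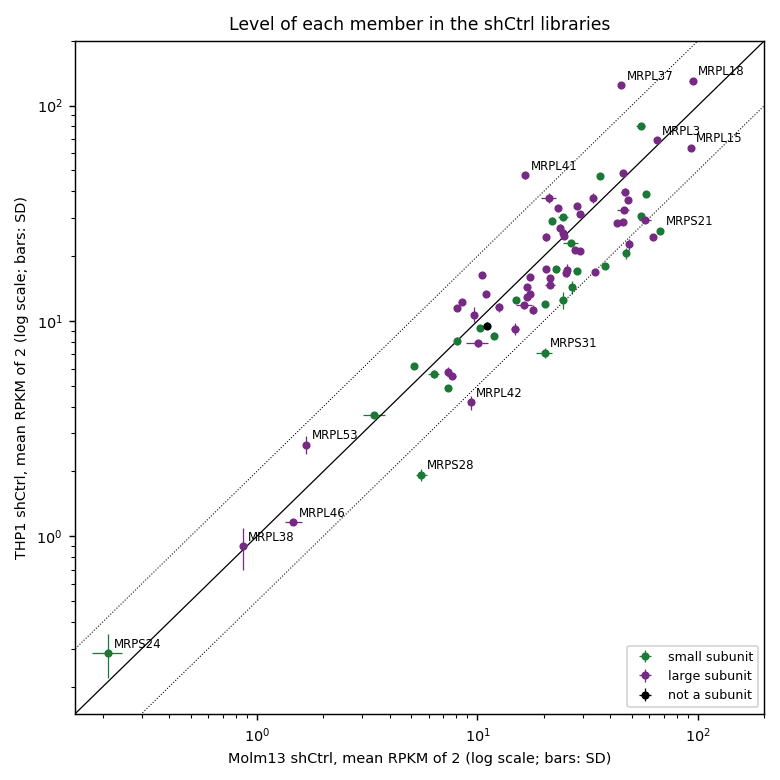
Mean RPKM of each gene in THP1 shCtrl (y axis) against Molm13 shCtrl (x axis), both on log scales, with SD bars over 2 libraries. Green points are small subunit genes, purple points large subunit genes and the black point MRPS36. The solid line marks equal levels and the dotted lines 2-fold differences. MRPL41 and MRPL37 lie above the upper dotted line, and MRPS28 and MRPS31 below the lower one.

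Most mitochondrial ribosomal protein genes were lower in Molm13 cells after PRMT9 KD. Of 77 tested genes, 50 were called lower at an FDR below 0.05 (64.9%, against a background of 33.5% of all 16446 genes) and 9 were called higher (11.7%, against 33.4%). The median log2 fold change was -0.24, with quartiles of -0.44 and -0.05, against 0.00 over all genes tested. Both shPRMT9 libraries were below both shCtrl libraries for 58 genes (background 40.5%) and above them for 14 (background 41.5%). The summed level of the 78 genes was 4897 and 4910 CPM (counts scaled to library size) in shCtrl and 4155 and 4167 in shPRMT9. Without MRPL20, the gene with the largest fold change, the sums were 4819 and 4830 against 4115 and 4127. That gene is a small part of the sums, so leaving it out could not have changed them much. The study's rule for differentially expressed genes (DEGs) asks for a change of over 1.5-fold either way with an FDR below 0.05. It also asks for a level over an RPKM of 1 in some library of the line. By this rule, 10 of 77 genes were lower, a share close to the background of 11.3%, and 0 were higher (background 11.4%). The count of 0 was the same with edgeR, DESeq2 and limma-voom and at an unadjusted p below 0.05, since no gene gained more than 0.37 on the log2 scale. A count of 9 higher genes was not stable, as it was 5 with DESeq2 and 14 after correction for GC content and length.

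Both subunits took part in the loss. Of the small subunit, 17 of 25 tested genes were called lower and 3 higher (background 33.5% and 33.4% of all genes, here and for the other classes), with a median log2 fold change of -0.23. Of the large subunit, 33 of 51 were called lower and 6 higher, with a median of -0.24. The ratio of the summed small to large subunit counts was 0.583 and 0.589 in shCtrl and 0.593 and 0.594 in shPRMT9. Among proteins with bacterial counterparts, 32 of 44 were called lower and 5 higher (median -0.26), and 9 of them passed the study's rule on the lower side (background 11.3%). Among mitochondria-specific proteins, 18 of 32 were called lower and 4 higher (median -0.21), and 1 passed it. The difference between these classes was not tested.

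The largest fall was that of MRPL20, a conserved large subunit protein encoded at chr1:1401908-1407313 on the minus strand (GRCh38). It had 27.8 and 28.6 RPKM in Molm13 shCtrl and 14.5 and 14.5 in shPRMT9. Its level after KD was thus 51.4% of that in shCtrl (log2 fold change -0.95, SE 0.049, FDR = 1.43e-21). MRPL36, the counterpart of the small bacterial L36 protein (chr5:1798386-1801366, minus strand), had 24.3 and 23.3 in shCtrl and 13.3 and 13 in shPRMT9. Its log2 fold change was -0.84 (SE 0.070, FDR = 1.83e-14). For both genes, which were picked for the size of their change, the libraries of the 2 groups did not overlap (background 40.5% of all genes lower). MRPL20 shares 10.5% of its exon bases with an annotated pseudogene of 7SL RNA on its strand, and MRPL36 shares none.

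MRPS11, MRPS16, MRPS10 and MRPS26 were the small subunit genes among the DEGs. MRPS11, a conserved protein of the platform where mRNA is held (chr15:88467453-88480773, plus strand), had 6.07 and 6.58 RPKM in shCtrl and 3.35 and 3.74 in shPRMT9 (log2 fold change -0.82, SE 0.070, FDR = 5.11e-14). MRPS16, in which inherited mutations cause a respiratory chain disease (chr10:73248843-73252693, minus strand), had 57.5 and 58.8 against 33.3 and 34.6 (-0.77, SE 0.035, FDR = 3.88e-23). In neither gene, both picked for the size of their change, did the groups overlap (background 40.5% of all genes lower). MRPS11 shares 9.2% of its exon bases with AC013489.3, a gene on the opposite strand with a log2 fold change of -4.28 in Molm13. MRPS16 shares 0.7% of its exon bases with DNAJC9, a histone chaperone gene on the same strand that had a log2 fold change of -1.43 in Molm13, and 14.1% with an antisense gene. MRPS10 (chr6:42206801-42217865, minus strand) had 35.5 and 36.6 against 23.3 and 21.4, 61.9% of its shCtrl level. MRPS26 (chr20:3045945-3048254, plus strand), the only mitochondria-specific gene among the 10, had 25 and 23.8 against 13.3 and 14.5, 57.1% of its shCtrl level. The shPRMT9 libraries of both were below those of shCtrl, as for 40.5% of all genes.

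MRPL12, MRPL35, MRPL19 and MRPL47 were the other large subunit genes among the DEGs. MRPL12 is part of the flexible stalk that recruits translation factors, and its free form is known to bind the mitochondrial RNA polymerase. It had 22.2 and 19.9 RPKM in Molm13 shCtrl and 12.2 and 12.3 in shPRMT9 (log2 fold change -0.78, SE 0.084, FDR = 4.74e-11). Of its exon bases, 68.2% are shared with another annotated gene on the same strand, so its value is uncertain. MRPL35 had 25.9 and 24.7 against 14.1 and 15.5 (-0.76, SE 0.046, FDR = 4.06e-19), and MRPL19 had 16.7 and 16.7 against 9.93 and 9.82 (-0.75, SE 0.047, FDR = 2.56e-18). MRPL47, the counterpart of bacterial L29 near the exit of the peptide tunnel, had 48.6 and 48.1 against 30.2 and 30.9 (-0.65, SE 0.050, FDR = 1.29e-15). ACTL6A, a chromatin remodeling gene on the opposite strand that shares 9.1% of the exon bases of MRPL47, had a log2 fold change of -0.76 in Molm13, and reads of the 2 cannot be told apart without a strand setting. MRPL38 had a log2 fold change of -0.60, but its level was below an RPKM of 1 in all Molm13 libraries and its call was lost with DESeq2 and without Molm13 shPRMT9 library 2 (-0.51). The call of MRPL46 (-0.29) was lost without shCtrl library 2 (-0.20) or shPRMT9 library 2 (-0.15), with DESeq2 (FDR = 0.236) and after correction for GC content and length (-0.20, FDR = 0.130), and that of MRPS18C without shPRMT9 library 1 (-0.20).

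**Figure D2:**
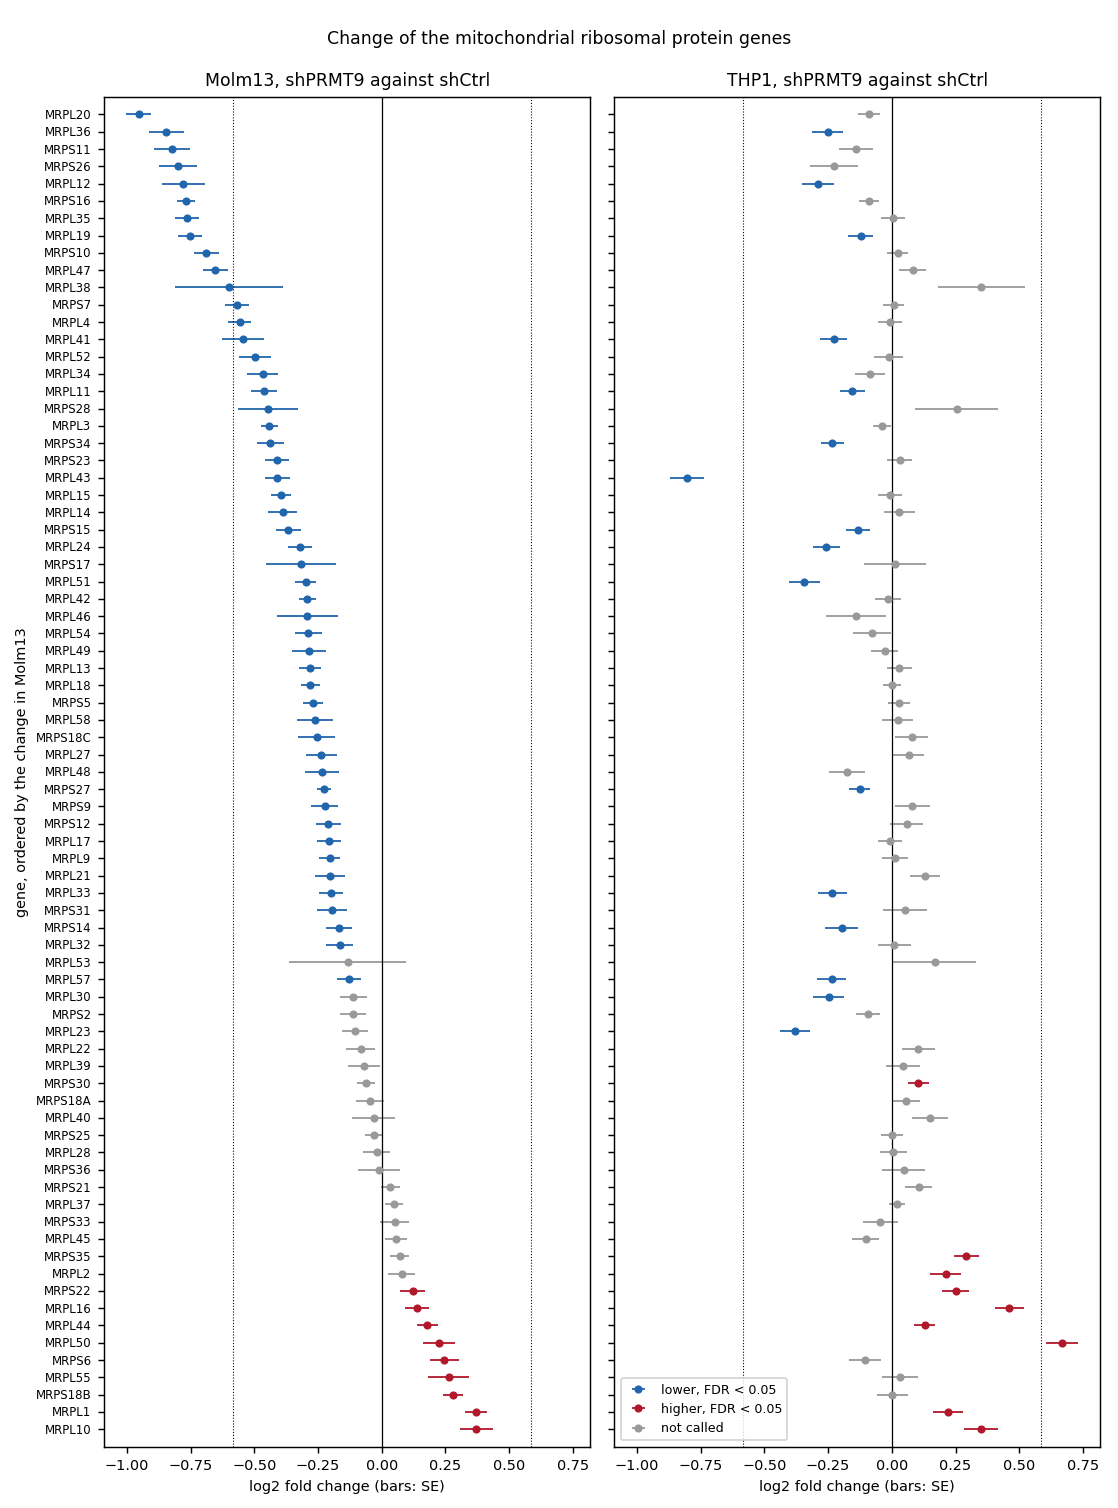
Log2 fold change, shPRMT9 against shCtrl, of the 77 genes tested in both lines, Molm13 on the left and THP1 on the right, in the order of the change in Molm13. Points are fitted values and bars SEs, blue is lower and red higher at an FDR below 0.05, gray is not called, and dotted lines mark a 1.5-fold change. In Molm13, 50 points are blue and 9 red, and in THP1 the points lie around 0 with 16 blue and 9 red.

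**Figure D3:**
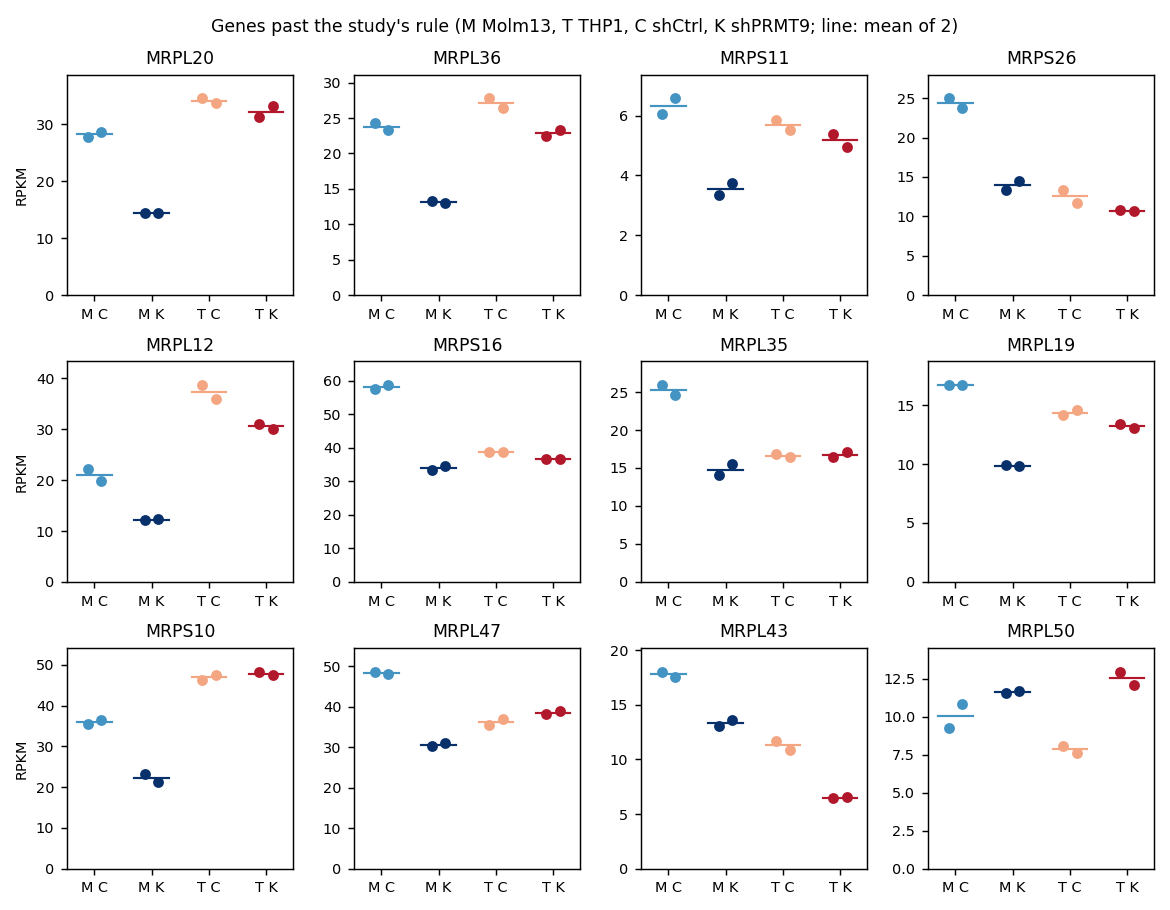
RPKM (y axis, from 0) of the 12 genes past the study's rule in either line, in each of the 8 libraries. Points are libraries and lines are means of 2, with M for Molm13, T for THP1, C for shCtrl and K for shPRMT9. For MRPL20, the Molm13 libraries are at 27.8 and 28.6 in shCtrl and at 14.5 in both shPRMT9 libraries.

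Some genes of the same ribosome were higher in Molm13 shPRMT9 cells. MRPL10, which anchors the stalk formed by MRPL12, had 9.79 and 9.59 RPKM in shCtrl and 13 and 12 in shPRMT9 (log2 fold change 0.37, SE 0.065, FDR = 2.86e-06). MRPL1, a protein at the exit site for tRNA, had 35.0 and 33.4 against 42.8 and 45.1 (0.37, SE 0.044, FDR = 5.41e-10). In both, which were picked for the size of their rise, the shPRMT9 libraries were above those of shCtrl (background 41.5% of all genes). MRPL12, whose value is uncertain because of its shared exon bases, was called lower in this line, as described above. MRPL11, at the base of the stalk, fell to 72.2% of its shCtrl level, from 25.1 and 24.5 to 17.9 and 17.9 RPKM. MRPS6, a conserved small subunit protein, reached 118.0% of its shCtrl level and MRPL55 119.4%, both called higher. The calls of MRPL50, MRPL16 and MRPS22 in Molm13 were lost with DESeq2 and without shCtrl library 1 (0.10, 0.12 and 0.10), and those of MRPL16 (0.11) and MRPS22 (0.05) also without shPRMT9 library 1. The call of MRPL55 was lost with DESeq2.

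The 3 MRPS18 genes are paralogs whose proteins occupy different places in the ribosome. MRPS18B, of the small subunit, had 46.8 and 47.3 RPKM in Molm13 shCtrl and 55.3 and 58.2 in shPRMT9 and was called higher (log2 fold change 0.28, SE 0.039, FDR = 3.14e-08). MRPS18C, the true counterpart of bacterial S18, had 5.10 and 5.20 against 4.12 and 4.45 (-0.26, SE 0.072, FDR = 0.00188), a call that was lost with DESeq2 (FDR = 0.0644) and after correction for GC content and length (-0.15, FDR = 0.0533). MRPS18A, of the large subunit, had 33.4 and 33.8 against 32.6 and 32.1 (-0.05, SE 0.055, FDR = 0.475) and did not pass the test. MRPS18A and MRPS18C share 47.0% and 40.2% of their exon bases with genes on the opposite strand. ABRAXAS1, the opposite-strand gene at MRPS18C, had a log2 fold change of 0.52.

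Genes with further known roles were less uniform. MRPL41, also described in cell death and p53 pathways, had 16.9 and 16.0 RPKM in shCtrl and 11.2 and 11.3 in shPRMT9, 68.2% of its shCtrl level. MRPS12, the counterpart of bacterial S12 in the decoding center, fell to 86.0%. It shares 16.3% of its exon bases with SARS2 on the opposite strand, which had a log2 fold change of -0.34 in Molm13. MRPL44, an RNase III-like protein, was called higher, at 112.6%. Of its exon bases, 12.9% are shared with a gene on the opposite strand. MRPL45, which faces the inner membrane, had a log2 fold change of 0.05 (FDR = 0.270), MRPS30 of -0.06 (FDR = 0.116) and MRPS36 of -0.01 (FDR = 0.914), and none of these 3 passed the test. The genes with the highest levels differed as well, since MRPL18, MRPL15 and MRPL3 were called lower (82.0%, 75.7% and 73.3% of shCtrl) and MRPL37 was not called (102.8%, FDR = 0.242). Across the 77 genes, the log2 fold change had a Spearman's rho of -0.06 with the Molm13 shCtrl level, 0.03 with exon length and -0.19 with GC content.

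In THP1, the same genes did not move in a common direction. Of 78 genes, 16 were called lower (20.5%, background 18.6% of 16294 genes) and 9 higher (11.5%, background 19%). The median log2 fold change was 0.00 with quartiles of -0.13 and 0.06, as it was 0.00 over all genes. The summed level was 4212 and 4182 CPM in shCtrl and 4167 and 4163 in shPRMT9. The shPRMT9 libraries were both below shCtrl for 34 genes (background 36.8%) and both above for 18 (background 29.7%). The study's rule was met by 1 lower gene (background 2.39%) and 1 higher gene (background 3.84%).

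The lower gene was MRPL43, a mitochondria-specific large subunit protein at chr10:100969458-100987515 on the minus strand. It had 11.7 and 10.9 RPKM in THP1 shCtrl and 6.44 and 6.52 in shPRMT9, 57.5% of the shCtrl level (log2 fold change -0.80, SE 0.065, FDR = 5.01e-11). In Molm13 it had 18.0 and 17.6 against 13 and 13.6 (-0.41, SE 0.049, FDR = 6.94e-10). The groups did not overlap in either line (background 36.8% of genes lower in THP1 and 40.5% in Molm13). On the opposite strand, 36.9% of its exon bases are shared with TWNK, the mitochondrial DNA helicase Twinkle, and with SEMA4G. TWNK had a log2 fold change of -0.85 in Molm13 and -0.04 in THP1 (FDR = 0.654). The part of shared reads in the values of MRPL43 was not tested in either line. The higher gene was MRPL50, another mitochondria-specific large subunit protein. It had 8.07 and 7.64 RPKM in THP1 shCtrl and 12.9 and 12.1 in shPRMT9 (0.67, SE 0.063, FDR = 1.38e-09), and 9.22 and 10.8 against 11.5 and 11.7 in Molm13 (0.22, SE 0.064, FDR = 0.00198).

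Smaller changes in THP1 fell on both sides. MRPL23 went from 16.3 and 15.6 RPKM to 11.9 and 12.7 (77.2% of shCtrl), MRPL51 to 79.2%, MRPL12 to 82.1% and MRPL24 to 84.1%, all called lower. MRPL51 shares 31.3% of its exon bases with NCAPD2, a condensin gene on the opposite strand with a log2 fold change of -0.11. MRPL16 went from 18.1 and 16.3 RPKM to 24.1 and 23.4 (138.1% of shCtrl), MRPL10 to 127.8%, MRPS35 to 123.0% and MRPS22 to 119.5%, all called higher. For these 8 genes, which were picked for the size of their change, the 2 groups did not overlap (background 36.8% lower and 29.7% higher). In contrast, MRPS16 and MRPS11, at 94.4% and 90.9% of shCtrl, and MRPS26, at 85.7%, did not pass the test. The calls of MRPL19 (-0.12), MRPS30 (0.10), MRPL44 (0.13) and MRPL11 (-0.15) in THP1 were each lost without 1 or more single libraries. MRPL19 (-0.14 to -0.11) and MRPS30 (0.09 to 0.11) lost theirs without any of the 4 libraries, MRPL44 without either shCtrl library (0.14 and 0.11) or shPRMT9 library 1 (0.10), and MRPL11 without shCtrl library 1 or shPRMT9 library 1 (-0.14 each). All 4 calls were also lost with DESeq2, that of MRPL11 at an FDR of 0.0839. The THP1 call of MRPL41 (-0.23) was lost after correction for GC content and length (-0.11, FDR = 0.0540).

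The difference between the lines was tested in a fit of all 8 libraries. The log2 fold change was higher in THP1 than in Molm13 for 43 of 78 genes (background 22.8% of 19288 genes) and lower for 4 (background 19.4%), with a median difference of 0.25 against 0.03 over all genes. With DESeq2 the counts were 29 and 4. The 5 genes with the smallest p were MRPL20, MRPS16, MRPL35, MRPS10 and MRPL47. MRPL20, which fell in Molm13, had 34.6 and 33.7 RPKM in THP1 shCtrl and 31.3 and 33.1 in THP1 shPRMT9 (log2 fold change -0.09, FDR = 0.113), and its difference between the lines was 0.88 (FDR = 2.30e-21). MRPL35 had 16.8 and 16.5 in THP1 shCtrl and 16.4 and 17.1 in shPRMT9 (0.01, FDR = 0.950), with a difference of 0.78 (FDR = 3.72e-18). MRPS10 had 46.3 and 47.6 against 48.3 and 47.5 (difference 0.72, FDR = 1.87e-17) and MRPL47 had 35.5 and 37 against 38.3 and 38.9 (difference 0.75, FDR = 3.12e-15). MRPS16 had 38.7 and 38.9 against 36.7 and 36.6 (difference 0.69, FDR = 2.43e-20). After KD, these 5 genes thus stood at 51.4 to 63.2% of their shCtrl level in Molm13 and at 94.4 to 106.3% in THP1.

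Some genes changed alike in both lines. Of the 77 genes tested in both lines, 14 were called lower in both (background 10.8% of 13476 genes) and 6 higher in both (background 11.5%). With DESeq2 these counts were 8 and 2. Without THP1 shCtrl library 1, 9 genes were called lower in both, and without Molm13 shCtrl library 1, 3 were called higher in both. In opposite directions, 0 genes were called (background 11.3%, also 0 with DESeq2 and limma-voom, and 1 with edgeR at an unadjusted p below 0.05 in both lines). MRPL10 gained 0.37 on the log2 scale in Molm13 and 0.35 in THP1, with a difference of -0.01 (FDR = 1.00). MRPL51 had -0.30 and -0.34, and MRPL24 had -0.32 and -0.26. Across the 77 genes tested in both lines, the log2 fold changes had a Pearson's r of 0.41 and a Spearman's rho of 0.44, given as a description since the genes share their libraries.

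Other genes of mitochondrial translation were compared with lists chosen by function. In Molm13, where 33.5% of all genes were called lower and 33.4% higher, 8 of 16 translation factors were called lower and 3 higher, with GFM1, an elongation factor, at -0.80 and SLIRP, a partner of LRPPRC in mRNA stability, at -0.58. Of 24 genes for mitoribosome assembly and rRNA modification, 15 were called lower and 5 higher, with MPV17L2 at -1.30 and NGRN at -1.06. Of 20 genes for mitochondrial tRNA charging, 10 were called lower and 3 higher, with MARS2 at -0.81, and of 12 genes for transcription and RNA processing 9 were called lower and 0 higher (0 also at an unadjusted p below 0.05 with edgeR and with DESeq2). The 77 tested nuclear subunits of oxidative phosphorylation had 47 lower and 11 higher calls and a median of -0.23, close to the -0.24 of the ribosomal protein genes. In THP1, these lists had medians from -0.05 to 0.07. PNPT1, the mitochondrial polynucleotide phosphorylase, stood at -0.96 in Molm13 and at 0.67 in THP1.

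Most genes of the cytosolic ribosome went the other way. Of 77 cytosolic ribosomal protein genes, 66 were called higher and 8 lower in Molm13 (median 0.29, background 33.4% and 33.5%), whereas 1 was called higher and 67 lower in THP1 (median -0.21, background 19% and 18.6%). The largest single changes of this list in Molm13 were nevertheless falls, of RPL36A (-0.80) and RPL21 (-0.80). Their mean levels in Molm13 shCtrl were low, at 23.6 and 23.5 CPM, and the part of this in their falls was not tested. In that line 3 genes of the list fell by over 1.5-fold and 0 rose by as much, with a highest log2 fold change of 0.51. In Molm13, the mitochondrial and cytosolic ribosomal protein genes thus had medians of opposite sign, and in THP1 only the cytosolic genes had a median away from 0. The 2 mitochondrial rRNAs, which pair with the proteins described here, followed the sign of the cytosolic genes. The log2 fold change of MT-RNR1 (small subunit rRNA) was 0.36 in Molm13 and -0.27 in THP1, and that of MT-RNR2 (large subunit rRNA) was 0.10 and -0.15, all 4 called, in libraries made from polyadenylated RNA. Of the 13 mRNAs encoded in mitochondrial DNA, 11 were called lower and 0 higher in Molm13 (median -0.18, 0 higher also at an unadjusted p below 0.05 with edgeR and with DESeq2) and 7 lower and 4 higher in THP1 (median -0.08). Of 5 mitoribosome proteins under other names, 4 were called lower in Molm13, with AURKAIP1 at -0.58, and PTCD3 was called higher (0.23).

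**Figure D4:**
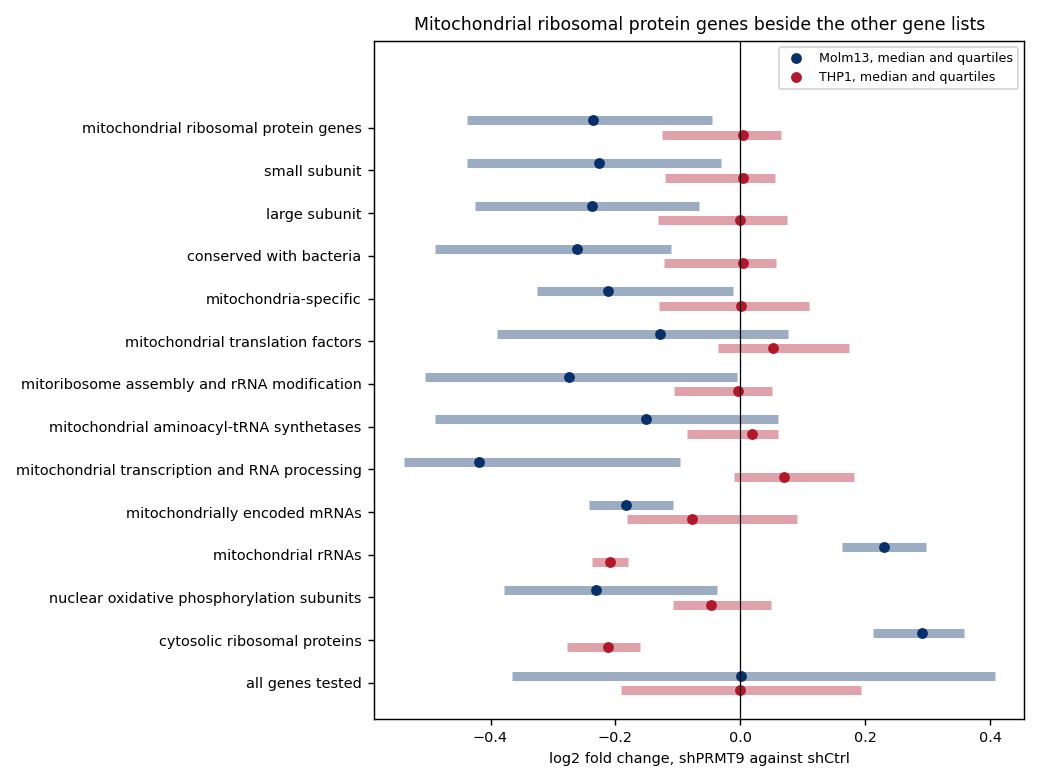
Median (points) and quartiles (bars) of the log2 fold change, shPRMT9 against shCtrl, in Molm13 (blue) and THP1 (red) for the mitochondrial ribosomal protein genes, their classes, the other lists and all genes tested. The mitochondrial ribosomal protein genes have medians of -0.24 and 0.00, and the cytosolic ribosomal protein genes 0.29 and -0.21.

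Many of these genes start back to back with another gene. In GENCODE release 29, 18 of the 78 genes (23.1%) have a protein-coding neighbor on the other strand whose start lies within 1000 bases upstream (or overlaps by up to 100), against 8.2% of all 19951 protein-coding genes. This comparison was added after the data were seen. Of 13 such genes that were called lower in Molm13 and whose neighbor is not itself a mitochondrial ribosomal protein gene, 6 had a neighbor also called lower (background 33.5% of all genes) and 3 a neighbor called higher (background 33.4%). By its GENCODE start, MRPL36 lies 34 bases from NDUFS6, a complex I subunit, and both were lower in both lines (-0.84 and -1.52 in Molm13, -0.25 and -0.40 in THP1). The RefSeq start of MRPL36, used for its promoter letters above, lies inside the GENCODE gene and is further from NDUFS6. MRPS11 and MRPL46, proteins of the 2 subunits, also start 34 bases apart (-0.82 and -0.29 in Molm13). MRPL47 starts 36 bases from NDUFB5, another complex I subunit, and here only MRPL47 moved (-0.65, against 0.00 for NDUFB5 in Molm13, FDR = 0.996). MRPL52 starts 59 bases from SLC7A7, an amino acid transporter gene, and the 2 changed in opposite directions in Molm13 (-0.50 and 0.93). Neighbors thus moved together in some pairs and apart in others.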

How the data were processed

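Poly-A-selected RNA of Molm13 and THP1 cells, shCtrl or shPRMT9 with 2 libraries each, was analysed. Raw counts per gene, deposited by the authors as whole numbers in separate tables for the lines, with hg38 coordinates and exon lengths for Molm13, were the input. Per the submitters' processing notes the tools were TopHat2 2.0.8, HTSeq 0.11.2 and edgeR 3.30.3. The annotation and strand setting are not given in the sources used here.

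In R 4.3.3, each line was fitted with edgeR 4.0.16 (TMM, filterByExpr, quasi-likelihood test, Benjamini-Hochberg adjustment over all genes), and all 8 libraries jointly for differences between the lines, over 19288 genes. Test scripts were checked on simulated counts. SEs were derived from the F value and the log2 fold change. RPKM used TMM-scaled totals and exon lengths. The study's upper limit for DEGs was taken to mean over 1.5-fold. Limma 3.58.1 and DESeq2 1.42.0, other normalizations, filters, limits, a replicate block, GC and length correction and left-out libraries were tried as alternatives. Exon overlaps, starts and GC came from GENCODE 29.

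Genes named with values are the 12 past the study's rule, per line the 5 largest called rises and falls, the 5 smallest p for a line difference, the 4 highest and 4 lowest levels, genes failing the filter, and a list with roles of their own (the MRPS18 paralogs, MRPL10, MRPL11, MRPL12, MRPL41, MRPL44, MRPL45, MRPS12, MRPS30, MRPS36), and from the other lists genes among the 2 largest called changes per line. Further genes are named because they count among few, overlap or neighbor a named gene, lost a call or sit in a motif count, and were chosen after their values were seen. Members and lists were chosen with earlier results of these data known.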

Additional observations from a re-analysis of the deposited data

Results flagged for a closer look

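The change after PRMT9 KD differed between THP1 and Molm13, by the test of the difference itself in the fit of all 8 libraries (edgeR, FDR below 0.05), for 43 genes with a higher and 4 with a lower log2 fold change in THP1. All 4 of the lower ones are among the named genes. MRPL43 (difference -0.38) fell in both lines and more in THP1. MRPS6 (-0.34) and MRPS18B (-0.27) were called higher in Molm13 and not called in THP1. MRPL23 (-0.26) was called lower in THP1 and not called in Molm13.

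Among named genes with a positive difference, the size was largest for MRPL38 (0.96), which had at most 107 counts in a library. It was 0.88 for MRPL20, 0.78 for MRPL35, 0.75 for MRPL47, 0.72 for MRPS10, 0.69 for MRPS11, 0.69 for MRPS16, 0.64 for MRPL19, 0.61 for MRPL36, 0.59 for MRPS26 and 0.50 for MRPL12, the 10 genes past the study's rule in Molm13. MRPL50 (0.46), MRPL16 (0.34) and MRPS35 (0.24) were called higher in THP1 and changed less in Molm13. The highly expressed genes MRPL3 (0.42), MRPL15 (0.40) and MRPL18 (0.29) were called lower in Molm13 and not called in THP1, as were MRPS18C (0.35) and MRPS12 (0.28). MRPL41 (0.33) and MRPL11 (0.32) were called lower in both lines, although in THP1 the call of MRPL41 was lost after correction for GC content and length and that of MRPL11 with DESeq2, and MRPS30 (0.18) was called higher in THP1 alone. The differences of MRPL38, MRPL41, MRPS12, MRPS18C and MRPS30 did not pass the test with DESeq2. That of MRPS12 was 0.14 without THP1 shPRMT9 library 2 and 0.20 without Molm13 shCtrl library 2, and that of MRPS18C 0.26 without Molm13 shPRMT9 library 1, none of which passed. For MRPL41 the test was lost without Molm13 shCtrl library 1 (0.26), Molm13 shPRMT9 library 2 (0.29), THP1 shCtrl library 2 (0.25) or THP1 shPRMT9 library 2 (0.24). For MRPS30 it was lost without Molm13 shCtrl library 1 (0.13), Molm13 shPRMT9 library 1 (0.12), THP1 shCtrl library 1 (0.14) or 2 (0.15), or THP1 shPRMT9 library 2 (0.13). Those of MRPL50 (0.30 without Molm13 shCtrl library 2) and MRPS35 (0.16 without THP1 shPRMT9 library 1) became over 1.5 times smaller and still passed. With 2 libraries in each group, no library could be tested for standing apart from its group.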

How the results depend on the processing

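The counts of lower calls in each line kept within 1.5 times of their reported values under the other normalizations, tests, filters and limits, apart from the changes named here. Higher calls in Molm13 were 5 with DESeq2 and 14 after correction for GC content and length. The median log2 fold change in Molm13 was -0.18 after that correction, -0.25 with no filter and -0.24 with all 8 libraries in 1 fit. In THP1 the median was -0.024 by library size alone and -0.0090 with no filter, so its sign was not stable. Differences between the lines numbered 29 above 0 with DESeq2, and 7 below 0 by library size alone. With a fold change limit of 2, 0 genes passed the study's rule in Molm13 and 0 in THP1. Without the 26 genes that share at least 10% of their exon bases with another gene, which was chosen after seeing the data, 52 genes remained. Of these, 32 were called lower in Molm13 (median -0.23) and 10 in THP1, and 1 passed the study's rule in THP1; the counts are smaller because fewer genes were counted. Leaving out each library in turn gave 44 to 48 lower and 6 to 9 higher calls and medians of -0.26 to -0.20 in Molm13, 11 to 17 lower and 6 to 8 higher calls and medians of -0.012 to -0.00085 in THP1, and 35 to 39 differences above and 4 to 5 below 0 between the lines. The lone library of a group was then assumed to vary like the others.

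With the replicate number as a replicate block, 50 genes were called lower and 9 higher in Molm13, and 16 lower and 8 higher in THP1. Libraries with the same number did not deviate together (correlation of their deviations from the group means -0.087 in Molm13 and -0.014 in THP1), so the numbers were not taken as pairs. Counts of genes called in both lines, whose alternatives were added after seeing the data, were 8 lower and 2 higher with DESeq2, and 9 to 15 lower and 3 to 6 higher with each library left out. Of 74 log2 fold changes and line differences of named genes that had passed the test, 17 lost their call under at least 1 alternative and none changed sign.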
